A study of Mus musculus with 6 samples.

Results

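Nuclei that resemble the periglomerular neurons and migrating neuroblasts of the olfactory system made up 132 of the 40685 nuclei kept from 6 single-nucleus RNA-seq libraries of mouse brain. They were chosen by a gate on raw counts of unique molecular identifiers (UMIs, each standing for 1 captured RNA molecule). A member had at least 1 UMI over Dlx1, Dlx2 and Dlx6os1, genes of the forebrain GABA lineage, and at least 3 UMIs over 6 markers: Th, Calb2, Pax6, Sp8, Top2a and Mki67. It had no UMI of Vip or Lhx6, which mark cortical interneuron classes, and at most 1 UMI each of Slc17a7 (excitatory neurons), of Aqp4 and Slc1a3 together (astrocytes), and of Adamts19, Vipr2, Cpa6, Frmd7 and Syt10 together. A kept nucleus had at least 500 detected genes and at most 5% mitochondrial UMIs. Of the 42589 barcodes in the files, 40685 met that criterion, and 7365 of these met the Dlx criterion with the limits on Slc17a7, Aqp4 and Slc1a3. These are called Dlx nuclei below, and the 7233 of them outside the gate are called other Dlx nuclei.

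The libraries came from wildtype C57BL/6 mice, 3 after sham surgery and 3 after 5/6 nephrectomy, a removal of most kidney mass that leaves the animal with chronic kidney disease. Brains were taken 6 weeks after surgery, and the series describes its target as cortex while the sample labels say brain. Nuclei were sorted by flow cytometry and profiled with a 3′ droplet kit that aimed at 10000 nuclei per sample. The labels give neither age nor sex and do not say that each library is a separate animal, so the p-values below measure the spread between libraries, which may be technical.

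The olfactory bulb receives new GABA interneurons throughout life. They arise from dividing progenitors beside the lateral ventricle, migrate forward as neuroblasts that carry doublecortin (Dcx), and mature into granule cells or into periglomerular cells around the glomeruli. Periglomerular cells are commonly sorted into classes by tyrosine hydroxylase (Th), the rate-limiting enzyme of dopamine synthesis, by calretinin (Calb2) and by calbindin (Calb1). The transcription factors Pax6, Sp8, Meis2, Etv1 and Sall3 act in this lineage, whereas Top2a and Mki67 belong to the machinery of dividing cells of any type.

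Libraries differed widely in size, with 2637 to 14756 barcodes and 15691316 to 41532967 UMIs. Sham 3 and nephrectomy 1 held the most barcodes and the shallowest nuclei, with medians of 2008 and 1001 UMIs per kept nucleus against 3163 to 5353.5 in the others. Library pairs shared 1 to 50 barcodes, and 1 member's barcode also occurred in another library. Members had a median of 3272.5 UMIs and 1925 genes, and other Dlx nuclei a median of 2876 UMIs.

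The 6 markers did not contribute equally, and the values in this paragraph chose the members and are given as a description. Pax6 held 307 of the marker UMIs (45.9%) and was found in 100 of the 132 nuclei. Th held 97 UMIs in 43 nuclei, Top2a 87 in 22, Calb2 73 in 22, Mki67 64 in 25 and Sp8 41 in 32. Th and Pax6 were found together in 36 nuclei and Pax6 and Sp8 in 26, while Top2a and Mki67 were found together in 18. No nucleus held both Th and Top2a, Th and Mki67, Calb2 and Top2a, or Calb2 and Mki67. In 43 members a single marker carried the gate, and 68 held 2 of the 6. The marker sum was exactly 3 in 53 members, 4 in 21 and 5 or more in 58, with a highest sum of 20. Just outside the gate, 132 further nuclei met every other criterion with a marker sum of 2. The Dlx criterion rested on a single UMI in 35 members (26.5%), against 3339 of the other Dlx nuclei (46.2%).

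Free RNA in the droplets gives some UMIs to cells that do not express a gene. In excitatory nuclei without Dlx UMIs (at least 3 Slc17a7 UMIs, median 5945 UMIs), Th was found in 0.382%, Calb2 in 1.43%, Sp8 in 0.459%, Top2a in 0.459%, Pax6 in 6.06% and Mki67 in 6.19%. Among members, with their lower median of 3272.5 UMIs, Th was found in 32.6%, Calb2 in 16.7% and Pax6 in 75.8%. Sp8 was found in 24.2%, Top2a in 16.7% and Mki67 in 18.9%. The gate itself sets all these shares. Of the 6 markers Mki67 had the highest share in excitatory nuclei, and its UMIs also choose the dividing subset below.

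Genes outside the gate gave a check of the label. The bulb and lateral ganglionic factor Meis2 was found in 122 members (92.4%) and in 64.3% of other Dlx nuclei. Gad1 or Gad2, the enzymes of GABA synthesis, were found in 112 members (84.8%) and in 78.2% of other Dlx nuclei. Of 20 olfactory bulb interneuron factors, 19 had at least 1 UMI in members, and their summed level was 4146 CPM (UMIs of a gene per 1000000 UMIs of the nuclei pooled) against 2721 in other Dlx nuclei. The migrating neuroblast list was at 1628 against 1074 CPM, with all 14 genes detected. Neither level was particular to members: the granule-like Meis2 nuclei described further on were at 6565 and 1509 CPM. For mitral or tufted cells, the projection neurons of the bulb, 4 of 6 markers had no UMI, and for midbrain dopamine neurons 4 of 6 markers had none, with Slc6a3 and Aldh1a1 detected. The midbrain list summed to 17.9 CPM in members, 115 CPM in the nuclei with at least 3 Th UMIs and 2.5 CPM in other Dlx nuclei. The dopamine pathway was incomplete in these counts. Ddc, which converts L-DOPA to dopamine, held 3 UMIs in all members, and the dopamine transporter Slc6a3 held 8, so low counts limit what can be said of either.

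Sorting the members by which marker reached at least 3 UMIs gave 4 overlapping subsets. The Th subset had 12 nuclei, the Calb2 subset 12, the Pax6 or Sp8 subset 71 and the dividing subset (Top2a or Mki67) 22. Another 22 nuclei reached 3 only over several markers, and 7 nuclei were in more than 1 subset. The values by subset are descriptions, since subset and gate read the same markers in the same nuclei.

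The Th subset carried other genes known from dopaminergic periglomerular cells. Pax6 was at 576 CPM, Etv1 at 991 and Sall3 at 530 there, against 26.3, 94.0 and 12 CPM in other Dlx nuclei. Sall3, a zinc-finger factor of dopaminergic bulb neurons, was found in 8 of the 12 nuclei, and Meis2 and Gad1 or Gad2 in all 12. Lgr5, a receptor for R-spondins, was at 1106 CPM in 10 nuclei, and Cpne7, a calcium-binding copine, at 1244 CPM in 11. Of the dopamine genes beyond Th, Slc6a3 held 5 UMIs in 3 nuclei, the vesicular transporter Slc18a2 held 5 UMIs in 5 nuclei, and Ddc held none. With 43401 UMIs in the subset, a count of 0 allows a level of up to 69.1 CPM. Sox11 and Igfbpl1, genes of immature neurons, also had no UMI there.

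The Calb2 subset was of another kind. Meis2 was at 1740 CPM in all 12 nuclei and Synpr, a synaptic vesicle protein of granule and periglomerular cells, at 403 CPM. Sall3 and Hgf had no UMI in it, where 3 counts would be 55.0 CPM. Striatal projection neuron genes were also present: Pde10a, the striatal phosphodiesterase, held 109 UMIs in 6 of the 12 nuclei and Rgs9 39 UMIs in 3. Their levels were 1997 and 714 CPM, both above the other Dlx nuclei at 1466 and 595 CPM. The striatal list summed to 4799 CPM, the highest of the subsets, against 3351 CPM in other Dlx nuclei. Nuclei with these genes go against a periglomerular label. Adarb2, a caudal ganglionic interneuron gene, was found in 8 nuclei (403 CPM). Oligodendrocyte genes summed to 1905 CPM, against 1169 CPM in other Dlx nuclei. Sham 1 and sham 3 gave 1 nucleus each to the subset, nephrectomy 2 gave 6 and nephrectomy 3 gave 4.

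The Pax6 or Sp8 subset held most members and lay between. Pax6 was at 800 CPM, Meis2 at 1912 and Dcx at 532 CPM. Sall3 was found in 23 of its 71 nuclei (179 CPM), Lgr5 in 31 (356 CPM) and Th in 21 (140 CPM).

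The dividing subset carried genes of the cell cycle and of immature neurons. Cenpf, a kinetochore protein, was at 341 CPM, Ezh2, a histone methyltransferase, at 317, Hmgb2 at 195 and Knl1 at 293 CPM. Sox11 was at 695 CPM in 16 of 22 nuclei. Gad1 or Gad2 were found in 13 of 22 (59.1%), the lowest share of the subsets, while Meis2 was found in 21. Genes of other dividing cells were present too: Vcan held 21 UMIs in 9 nuclei, the oligodendrocyte precursor receptor Pdgfra 6 UMIs in 3, and the microglial receptor Csf1r 4 UMIs in 2. Oligodendrocyte precursor genes summed to 463 CPM, against 116 CPM in other Dlx nuclei, and microglial genes to 171 against 50.9 CPM. Striatal projection neuron genes summed to 3243 CPM, near the 3351 CPM of other Dlx nuclei. Among them Pde10a held 121 UMIs in 10 nuclei and Rgs9 48 UMIs in 8. Dcx, at 195 CPM, was below the other subsets and below the levels of other Dlx nuclei given further on. Sham 3 alone gave 12 of the 22 nuclei.

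**Figure D1:**
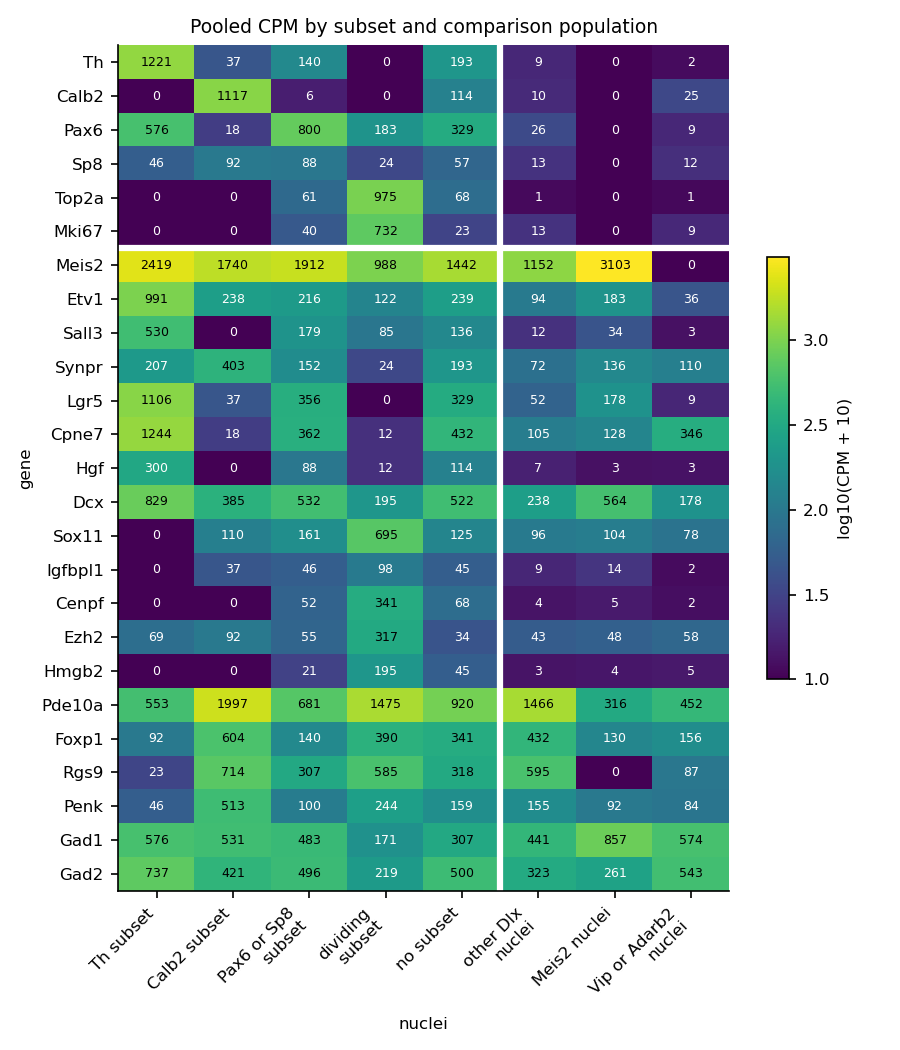
Pooled level of each gene (rows) in the 5 classes of members and in 3 comparison populations (columns), printed as CPM in each cell and coloured by log10(CPM + 10). The 6 rows above the white line are the gate's markers; below it, Sall3, Lgr5, Cpne7 and Hgf are highest in the Th subset, Sox11 and the cell cycle genes in the dividing subset, and Pde10a and Rgs9 in the Calb2 subset.

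The number of members was compared between the surgeries as a share of nuclei. Sham libraries held 27, 9 and 29 members and nephrectomy libraries 7, 33 and 27. As a share of kept nuclei these were 1.05%, 0.298% and 0.212% in sham and 0.0572%, 0.763% and 0.554% after nephrectomy, so the groups overlapped and the lowest share was in nephrectomy 1. Means were 0.521% ± 0.462 (SD, n = 3) and 0.458% ± 0.363 (SD, n = 3), with p = 0.9 by an exact 2-sided permutation test over libraries. With 3 libraries a group this test cannot go below 0.1.

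Against like nuclei the picture was the same. Members were 3.07%, 1.86% and 1.12% of Dlx nuclei in sham and 0.615%, 2.75% and 2.51% after nephrectomy, with means of 2.02% ± 0.983 and 1.96% ± 1.17 (SD, n = 3 each; exact permutation p = 1). Exact 95% binomial intervals, which cover counting error only, ran from 2.03% to 4.43% in sham 1 and from 0.248% to 1.26% in nephrectomy 1. The interval of sham 3, from 0.752% to 1.61%, lay wholly below that of sham 1, so libraries of 1 group differed by more than counting error. When every kept nucleus was thinned to 2000 UMIs, leaving out shallower ones (290 to 6810 per sham library and 1297 to 8682 per nephrectomy library), members were 0.829% ± 0.376 of Dlx nuclei in sham and 1.42% ± 0.711 after nephrectomy, a difference in the opposite direction with an exact permutation p = 0.3. Dlx nuclei themselves ranged from 9.30% of kept nuclei in nephrectomy 1 to 34.3% in sham 1, and Meis2-rich nuclei without striatal receptors from 0.270% to 8.95% of kept nuclei in nephrectomy 1 and 2. Their part in the members' shares was not tested.

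**Figure D2:**
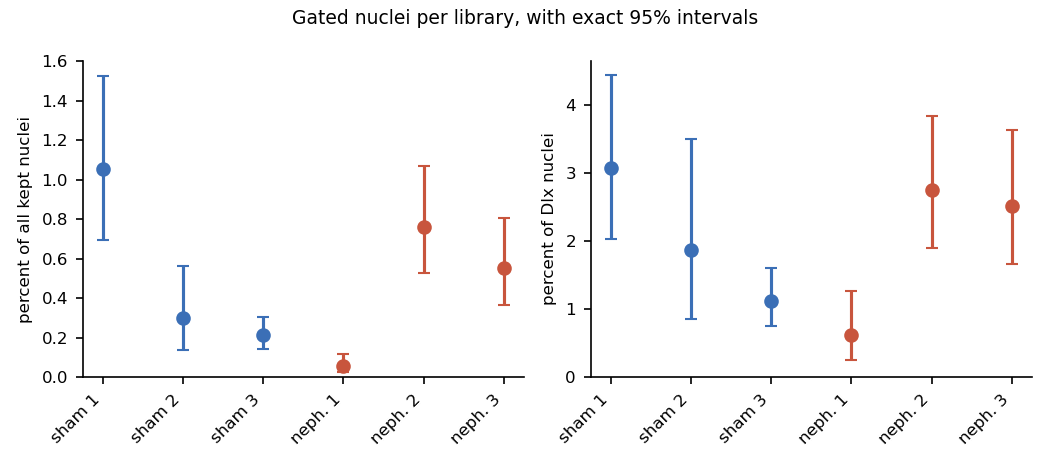
Share of gated nuclei in each library, as a percent of all kept nuclei (left axis panel) and of Dlx nuclei (right axis panel); points are libraries, blue for sham and red for nephrectomy, and bars are exact 95% binomial intervals. The groups overlap in both panels, and nephrectomy 1 lies lowest in both.

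Subset shares were compared over the 4 libraries with at least 10 members, which leaves 2 against 2 and a smallest possible p of 0.333. Calb2 subset nuclei were 3.70% and 3.45% of members in sham 1 and 3, and 18.2% and 14.8% in nephrectomy 2 and 3. The groups did not overlap, and the exact permutation p of 0.333 was the smallest this design allows. Th subset nuclei were 11.1% and 3.45% in sham and 12.1% and 14.8% after nephrectomy (exact permutation p = 0.333). Pax6 or Sp8 subset nuclei were 74.1% and 41.4% in sham and 48.5% and 44.4% after nephrectomy (exact permutation p = 1). Dividing nuclei were 3.70% and 41.4% in sham and 3.03% and 11.1% after nephrectomy (exact permutation p = 0.667), so sham 3 stood apart from all the others. Over the 6 shares tested, every adjusted p was 1. With all 6 libraries, a choice made after seeing the data, the Calb2 share was 2.38% ± 2.07 in sham and 11% ± 9.67 after nephrectomy (SD, n = 3 each; exact permutation p = 0.4), since sham 2 and nephrectomy 1 had none.

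Gene levels were compared between the surgeries by summing members' UMIs per library. Sham 2 with 9 members and nephrectomy 1 with 7 were left out of the main fit, which used 116 members in 4 libraries and 99735 to 131140 UMIs each. No gene passed in this fit: of 2678 genes outside the gate that were abundant enough to test, 0 (0%) passed an adjusted p of 0.05 in edgeR's quasi-likelihood test, and 79 had an unadjusted p under 0.05. DESeq2 also called 0 genes with 11 at an unadjusted p under 0.05, and limma-voom 0 with 66. In simulated counts of this comparison, 8.89% of genes changed by 2-fold and 60.2% of genes changed by 4-fold were recovered, so smaller changes were not detectable at this depth. Values of the 2 groups did not overlap for 839 of the 2678 genes (31.3%).

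Leaving out 1 sham library changed the count. Without sham 1, 38 of 3180 genes passed, 19 higher and 19 lower, and without sham 3, 42 of 3874 passed, 11 higher and 31 lower. In both fits the single sham library left is assumed to vary like the nephrectomy libraries. Without nephrectomy 2 or nephrectomy 3 the count was 0, with 50 and 78 genes at an unadjusted p under 0.05 in edgeR.

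Ralyl, which encodes an RNA-binding protein of the heterogeneous nuclear ribonucleoprotein type (GRCm38 3:13471655-14182287, plus strand), had the lowest p. Its level in members was 366 and 202 CPM in sham 1 and 3, and 30.5 and 70.2 CPM in nephrectomy 2 and 3. The libraries under 10 members lay on the same sides, sham 2 at 347 CPM and nephrectomy 1 at 22.3 CPM, so no sham library overlapped a nephrectomy library. The log2 change was -2.57 ± 0.53 (SE), with an adjusted p of 0.660 over 4 libraries in edgeR. With all 6 libraries, chosen after seeing the data, it was -2.78 ± 0.46 with an adjusted p of 0.00315, the 1 gene called of 2180 (0.0459%), while 198 genes (9.08%) did not overlap between 3 and 3 libraries. Over 4 libraries it also passed without a filter on low counts (adjusted p = 0.00457). Over the 3 libraries left without sham 3 it passed (adjusted p = 4.95e-07), with 1 sham library in the fit, and without sham 1 it did not (adjusted p = 0.0775).

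Few nuclei stood behind the Ralyl values. In sham, 8 of 27, 6 of 9 and 9 of 29 members held 48, 16 and 21 Ralyl UMIs, and 22 of the 48 in sham 1 came from 1 nucleus. Without the highest nucleus of each library the levels were 206, 248 and 175 CPM in sham. After nephrectomy 1 of 7, 3 of 33 and 4 of 27 members held 1, 4 and 7 UMIs. Within the Pax6 or Sp8 subset alone, Ralyl was at 457, 440.5 and 231 CPM in sham, against 113 CPM in nephrectomy 3 and no UMI in nephrectomy 1 and 2. Other Dlx nuclei of the same libraries were at 149, 177 and 154 CPM in sham and 146, 127 and 149 CPM after nephrectomy, a narrow range in which the lowest sham value (148.8 CPM) and the highest nephrectomy value (148.6 CPM) nearly met. In excitatory nuclei the groups overlapped, with 228 to 307 CPM in sham and 233 to 358 CPM after nephrectomy. The difference between members and other Dlx nuclei in the nephrectomy change was tested by an interaction term, added after seeing the data. It was -2.41 ± 0.48 on the log2 scale over 4 libraries (edgeR adjusted p = 0.191, 0 of 2678 genes called, 109 at an unadjusted p under 0.05) and -2.62 ± 0.44 over 6 (adjusted p = 0.0149, 1 of 2180 called).

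The next 4 genes by p did not pass in the main fit. Fbxl16, an F-box protein, was at 30.5 and 67.2 CPM in sham and 168 and 261 CPM after nephrectomy, a log2 difference of 2.12 ± 0.50. With the smaller libraries at 109 CPM (sham 2) and 223 CPM (nephrectomy 1) the groups still did not overlap. The same held for 198 of 2180 genes (9.08%) over all 6 libraries. Taf1, the largest subunit of the general transcription factor TFIID, was at 229 and 182 against 76.3 and 20.1 CPM, a difference of -2.01 ± 0.53, but nephrectomy 1 at 156 CPM lay above sham 2 at 152 CPM. The long noncoding RNA Miat was at 153 and 441 against 83.9 and 70.2 CPM (-1.90 ± 0.53). Nephrectomy 1 at 334 CPM lay above sham 1, so the groups overlapped, and with all 6 libraries the Miat estimate was -1.26. The noncoding RNA A230006K03Rik was at 305 and 106 against 30.5 and 60.2 CPM (-2.27 ± 0.62). Adjusted p was 0.999 for each of these 4 in edgeR. Without sham 3, Fbxl16 (adjusted p = 0.00423), Taf1 (0.00772) and A230006K03Rik (7.33e-06) passed, and without sham 1 Miat did (1.75e-05).

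**Figure D3:**
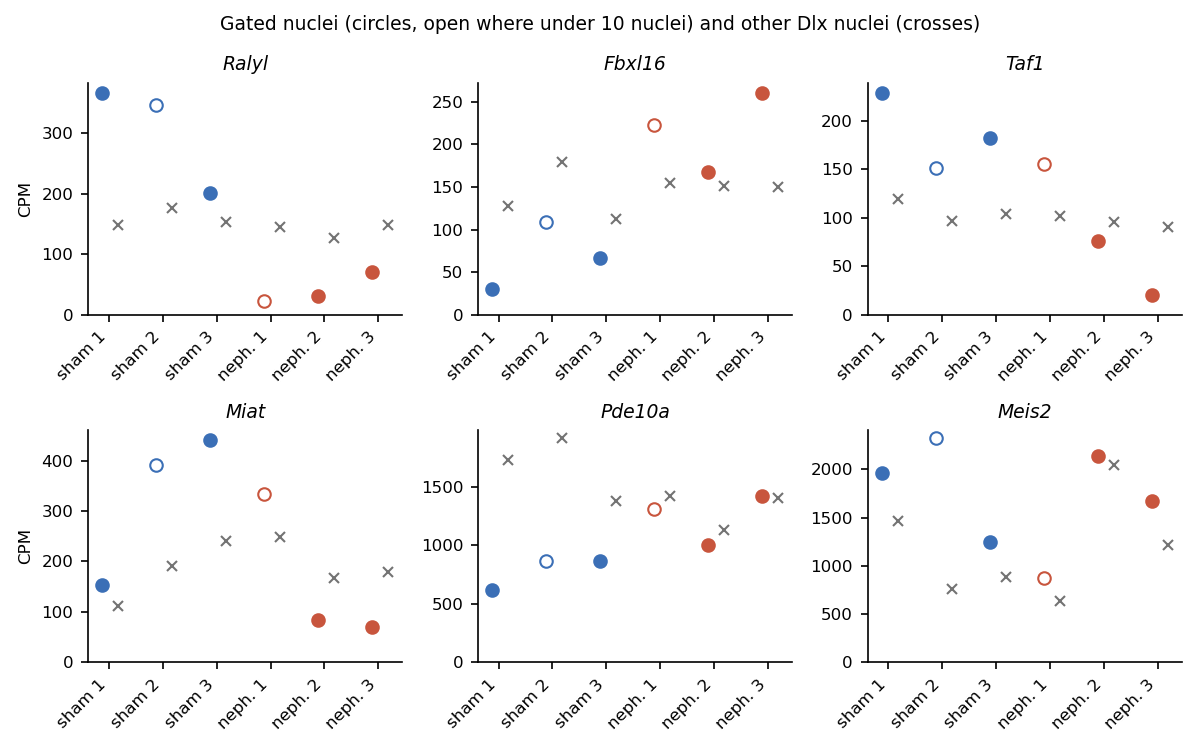
CPM of 6 genes in each library: circles are gated nuclei (blue sham, red nephrectomy, open where a library held under 10), crosses are other Dlx nuclei of the same library. Ralyl circles separate the groups (202 to 366 CPM in sham, 22.3 to 70.2 CPM after nephrectomy) while its crosses stay between 127 and 177 CPM.

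Identity genes of the lineage did not pass between the surgeries. Meis2 was at 1960 and 1248 CPM in sham and 2135 and 1674 CPM after nephrectomy (log2 difference 0.22 ± 0.35), and Dcx at 702 and 298 against 503 and 461 CPM (-0.10 ± 0.41). Gad1 was at 480 and 365 against 511 and 481 CPM, and Gad2 at 488 and 336 against 427 and 521 CPM. These 4 estimates changed sign when 1 sham library was left out, Dcx without sham 1 (0.76) and Meis2, Gad1 and Gad2 without sham 3 (-0.10, -0.01 and -0.11). Of the olfactory bulb interneuron factors 8 were tested, 5 with higher and 3 with lower estimates after nephrectomy and a median log2 of 0.17, against -0.01 over all 2678 genes, and none passed. Of 6 neuroblast genes tested, 1 was higher and 5 lower with a median of -0.42, and none passed.

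Of 6 striatal projection neuron genes tested, all had a higher estimate after nephrectomy (median log2 0.60) and none passed. Pde10a was at 618 and 864 CPM in sham and 1007 and 1424 CPM after nephrectomy (0.70 ± 0.33), and Rgs9 at 91.5 and 547 against 328 and 561 CPM (0.50 ± 0.71). Single nuclei weighed on both: in nephrectomy 3, 1 nucleus held 72 of 142 Pde10a UMIs and 1 held 30 of 56 Rgs9 UMIs. Without the highest nucleus of each library Pde10a was at 406 and 816 CPM in sham. After nephrectomy it was then at 791 and 883 CPM, so the groups overlapped. The Rgs9 estimate turned to -0.27 without sham 1 and rose to 2.18 without sham 3, where it passed (adjusted p = 0.000659). Summed over the list of 10, the level was 1319 to 2208 CPM in sham libraries and 1983 to 3516 CPM after nephrectomy, and the ranges overlapped. Calb2 itself, a gate gene given without test, was at 61.0 and 48.0 against 252 and 271 CPM, and was not found in sham 2 or nephrectomy 1.

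RNA of other cell types also differed between libraries. Oligodendrocyte genes summed to 130, 369 and 1776 CPM in sham and 932 to 1380 CPM after nephrectomy, with all 6 markers detected. Astrocyte genes summed to 160, 326 and 1133 CPM in sham and 191 to 601 CPM after nephrectomy, with all 5 detected. Microglial genes summed to 0 to 38.4 CPM in sham and 89.0 to 120 CPM after nephrectomy, without overlap and with all 7 markers detected over the members. Endothelial and mural genes, of which 2 of 7 had no UMI, summed to 0 to 28.8 CPM in sham and 38.1 to 100 CPM after nephrectomy. The microglial and endothelial sums rest on few UMIs, since members held 44937 to 131140 UMIs per library. How many nuclei of each library gave these UMIs was not counted, and the lack of overlap was not tested. The part of these other cell types in the differences above was not tested.

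Members were compared with other Dlx nuclei of the same library to show where they differed beyond the gate, in the 4 libraries with at least 10 members and with library as a block. Of 12428 genes outside the gate, 257 (2.07%) passed in edgeR, 98 higher (0.789%) and 159 lower (1.28%) in members. The split of directions depended on scaling. With DESeq2's size factors 124 were higher and 81 lower, and the median log2 of all genes moved from -0.10 to -0.00. DESeq2's own test called 57 genes, 46 higher and 11 lower. With comparison nuclei matched on UMIs 66 of 2468 genes passed, 32 higher and 34 lower, and without nephrectomy 2 the count was 152. Genes that go with a gate marker in the same nuclei, such as cell cycle genes with Top2a, are not independent of the gate.

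Sall3 and Hgf were among the genes with the largest higher differences. Sall3 was at 259, 86.4, 198 and 120 CPM in members of sham 1, sham 3, nephrectomy 2 and nephrectomy 3, and at 19.1, 10.4, 19.2 and 12.8 CPM in other Dlx nuclei. Every member value lay above every comparison value, a separation that was not counted over all genes. The log2 difference was 3.35 ± 0.30 (edgeR adjusted p = 9.48e-26). Hgf, the hepatocyte growth factor that signals through Met, was at 153, 19.2, 114 and 30.1 CPM against 6.78 to 7.96 CPM, a difference of 3.33 ± 0.45 (adjusted p = 1.32e-10).

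Lgr5 was at 397, 28.8, 656 and 251 CPM against 66.7, 27.4, 149 and 55.3 CPM, and the log2 difference was 2.06 ± 0.19 (adjusted p = 7.89e-23). Sham 3, where many members were dividing nuclei, was nearly level with its comparison nuclei for this gene. Cpne7 showed the same order of libraries, with 458, 125, 534 and 251 CPM against 99.1, 107, 136 and 104 CPM (1.53 ± 0.18). Other genes named on the higher side for their fold were Grin2c, an NMDA receptor subunit (2.73 ± 0.50), Prkg2, a cGMP-dependent kinase (1.94 ± 0.37), Pde1c, a calcium-activated phosphodiesterase (1.60 ± 0.20), and D16Ertd472e (2.40 ± 0.49). Each was higher in all 4 libraries, though D16Ertd472e missed the threshold without nephrectomy 2 (adjusted p = 0.126).

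Syne2, which links the nucleus to the cytoskeleton, and the chromatin remodeller Chd7 were highest in sham 3 instead. Syne2 was at 38.1, 230, 68.6 and 70.2 CPM against 15.9 to 30.01 CPM (2.05 ± 0.33), and Chd7 at 38.1, 192, 122 and 150 CPM against 27.1 to 59.3 CPM (1.48 ± 0.27). In the subsets both were highest among the dividing nuclei, at 183 and 256 CPM.

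**Figure D4:**
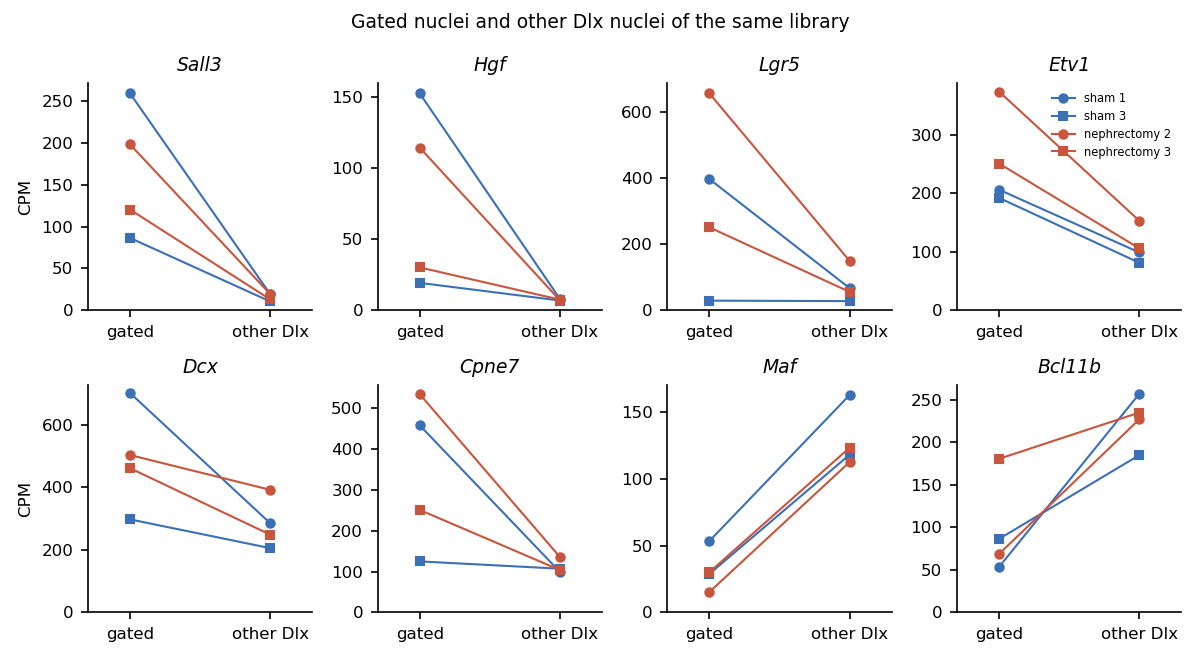
CPM of 8 genes in gated nuclei and in other Dlx nuclei of the same library, joined by a line per library (blue sham, red nephrectomy, with circles for the first and squares for the second library of a group). Sall3, Hgf, Etv1, Dcx and Cpne7 run downward from gated to other nuclei in all 4 libraries, and Maf and Bcl11b run upward.

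Of the 20 olfactory bulb interneuron factors 17 were tested, 3 passed higher and 1 lower. The median log2 was 0.38, against -0.10 over all genes tested. Etv1 was at 206, 192, 374 and 251 CPM against 98.7, 81.1, 153 and 106 CPM (1.15 ± 0.19) and Synpr at 259, 76.8, 168 and 231 CPM against 117, 49.8, 109 and 74.6 CPM (0.99 ± 0.21). The factor that passed lower was Tshz1, a zinc-finger factor of bulb interneurons, at 168, 76.8, 68.6 and 50.1 CPM against 174, 96.7, 237 and 152 CPM (-0.89 ± 0.24). Meis2 had a higher estimate that did not pass, 0.29 ± 0.12 (adjusted p = 0.25). Synpr missed the threshold without nephrectomy 3 (adjusted p = 0.087), and Tshz1 without nephrectomy 2 (0.542) or nephrectomy 3 (0.185).

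Of 14 neuroblast genes 12 were tested and 4 passed, all higher, with a median log2 of 0.73. Dcx, the microtubule protein of migrating neurons, was at 702, 298, 503 and 461 CPM against 285, 206, 392 and 249 CPM (0.73 ± 0.15, adjusted p = 0.000207). Dpysl3, a collapsin response mediator, was higher by 1.47 ± 0.39. Igfbpl1 and Sox11 rested on certain libraries. Igfbpl1 was at 0, 144, 7.63 and 70.2 CPM against 5.38 to 11.2 CPM (2.44 ± 0.52), and Sox11 at 53.4, 355, 114 and 180.5 CPM against 83.7 to 99.9 CPM (0.72 ± 0.22), so that sham 1 was lower than its comparison nuclei for both. Without the dividing subset, a setting added after seeing the data, the Sox11 estimate was -0.01 with an adjusted p of 0.999. Without sham 3 neither Igfbpl1 (adjusted p = 0.556) nor Sox11 (0.932) passed, and without sham 1 neither Dcx (0.152) nor Dpysl3 (0.155) did. Sox11 was also lost without nephrectomy 2 (0.0953) or nephrectomy 3 (0.213), and Dpysl3 without sham 3 (0.0856) or nephrectomy 2 (0.0604).

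Of 24 cell cycle genes 7 were tested and 4 passed, all higher: Hmgb2 (3.53 ± 0.59), Birc5 (4.20 ± 0.77), Kif15 (2.86 ± 0.63) and Ezh2 (1.04 ± 0.29). These follow the choice of nuclei by Top2a and Mki67, and without sham 3 Birc5, Kif15 and Ezh2 did not pass (adjusted p = 0.211, 0.224 and 0.728), nor did Ezh2 without nephrectomy 3 (0.121). Of 8 dopamine genes outside the gate 5 were tested and 2 passed, both higher. Slc18a2 was at 53.4, 67.2, 114 and 50.1 CPM against 26.4 to 35.0 CPM (1.19 ± 0.33), but excitatory nuclei without Dlx UMIs were at 35.5 CPM, so the level of other Dlx nuclei is at the background. Pts, an enzyme of the cofactor that tyrosine hydroxylase needs, was at 53.4 to 120 CPM against 31.2 to 43.2 CPM (1.02 ± 0.31, adjusted p = 0.0463). Slc18a2 did not pass without nephrectomy 2 (adjusted p = 0.662), and Pts missed the threshold whichever of the 4 libraries was left out (0.074 to 0.367). Of 5 genes of GABA synthesis and transport, none passed.

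Markers of cortical interneurons and of striatal neurons were on the lower side. The gate excludes nuclei with a Vip or Lhx6 UMI, and other Dlx nuclei include them. The lower interneuron genes therefore follow in part from how the nuclei were chosen. Of the caudal ganglionic interneuron genes 11 were tested and 3 passed, all lower: Reln, Adarb2 and Npas1. Adarb2 was at 442, 288, 290 and 180.5 CPM against 518, 394, 560.5 and 421 CPM (-0.72 ± 0.16). Npas1, a transcription factor of caudal ganglionic interneurons, had no UMI in any member and 24.3 CPM in other Dlx nuclei, which is at least 4.51-fold lower when 3 counts over all members are taken as the floor. Of 6 medial ganglionic genes tested Npy and Satb1 passed, both lower. Maf, a transcription factor of cortical interneurons, was at 53.4, 28.8, 15.3 and 30.1 CPM against 163, 118, 112 and 123 CPM (-2.09 ± 0.32, adjusted p = 8.92e-08). Single libraries decided several of these calls: Adarb2 did not pass without nephrectomy 3 (adjusted p = 0.0673), Npas1 without nephrectomy 2 (0.0707), Npy without nephrectomy 2 (0.226) or 3 (0.249), and Reln without sham 1 (0.255), sham 3 (0.163) or nephrectomy 2 (0.256).

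All 10 striatal projection neuron genes were tested and 5 passed, all lower. The median log2 of the list was -0.61. Drd1, the dopamine receptor of direct pathway neurons, was at 15.3, 57.6, 22.9 and 50.1 CPM against 140, 108, 80.8 and 130 CPM (-1.78 ± 0.32), and Bcl11b at 53.4, 86.4, 68.6 and 180.5 CPM against 257, 185, 227 and 235 CPM (-1.35 ± 0.22). The others were Foxp1 (-0.75 ± 0.17), Pde10a (-0.62 ± 0.13) and Rgs9 (-0.60 ± 0.15). For Rgs9 nephrectomy 3 was level with its comparison nuclei, at 561 and 559 CPM. Without sham 1 neither Rgs9 (adjusted p = 0.519) nor Pde10a (0.21) passed.

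Growth and guidance genes were lower where they passed. Of 15 tested, 4 passed, all lower: the neuregulin receptor Erbb4 (-0.93 ± 0.22), the ephrin receptor Epha5 (-0.64 ± 0.14), Cntnap2 (-0.82 ± 0.24) and Il1rap, the co-receptor of interleukin-1 (-1.24 ± 0.36, adjusted p = 0.0281). Il1rap was at 15.3, 57.6, 7.63 and 60.2 CPM in members against 52.9, 80.4, 83.7 and 78.8 CPM. Its ligand-binding partner Il1r1 had no UMI in members, where 3 counts over all members would be 5.38 CPM, and was at 1.77 CPM in other Dlx nuclei, so its absence cannot be read at this depth. Of 12 activity genes all were tested and Homer1 passed, with a log2 difference of -0.65 ± 0.18. Without nephrectomy 2 Epha5 (adjusted p = 0.324), Cntnap2 (0.485), Il1rap (0.535) and Homer1 (0.191) did not pass, and without nephrectomy 3 Erbb4 (0.129), Cntnap2 (0.0802) and Homer1 (0.0952) did not. Cntnap2 was also lost without sham 3 (0.167), and Il1rap (0.102) and Homer1 (0.0881) without sham 1.

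Some genes of other cell types moved with the comparison. The astrocyte glutamate transporter Slc1a2 passed higher (0.81 ± 0.16), at 137, 1046, 442 and 180 CPM against 132, 399, 172 and 185 CPM, with sham 3 far above the rest, and did not pass without sham 3 (adjusted p = 0.179) or nephrectomy 2 (0.125). Astrocyte genes summed to 481 CPM in members and 289 CPM in other Dlx nuclei, and oligodendrocyte genes to 930 and 1169 CPM. The part of free RNA and doublets in these values was not tested. Sham 3 gave 9 of the 13 members called as doublets, under a calling rate that was set to rise with a library's barcodes.

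Other genes named on the lower side were 6330411D24Rik (-2.61 ± 0.50), the skeletal muscle type ryanodine receptor Ryr1 (-2.10 ± 0.43), the vesicle protein Rph3a (-1.91 ± 0.42), Tmem44 (-1.87 ± 0.40), Samd5 (-1.82 ± 0.38), the adhesion molecule Chl1 (-1.78 ± 0.33), the potassium channel Kcnh3 (-1.76 ± 0.41) and Pcp4l1 (-1.76 ± 0.37). Rph3a did not pass without sham 1 (adjusted p = 0.0743), nor Kcnh3 without nephrectomy 2 (0.0994).

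A closer relative is the olfactory granule-like population, Dlx nuclei with at least 3 Meis2 UMIs, no UMI of Drd1, Drd2, Adora2a or Rgs9, and none of the 6 markers. It had 1028 nuclei with a median of 2076.5 UMIs. Of 6070 genes used by neither gate, 343 (5.65%) passed in edgeR, 134 higher (2.21%) and 209 lower (3.44%) in members. The count was 150 with DESeq2, 122 with nuclei matched on UMIs, 227 with a marker sum of at least 4, 218 with all 6 libraries, 184 without nephrectomy 2 and 228 without nephrectomy 3.

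Tshz1, Lgr6 and Rspo3 were lower in members than in these nuclei. Tshz1 was at 168, 76.8, 68.6 and 50.1 CPM against 407, 297, 465 and 444 CPM (-2.09 ± 0.24, adjusted p = 5.90e-07). Lgr6, a relative of Lgr5, was at 15.3, 0, 7.63 and 0 CPM against 166, 91.5, 124 and 85.0 CPM (-4.13 ± 0.50), so that Lgr5 and Lgr6 lay on opposite sides in value, although Lgr5 did not pass here (0.90 ± 0.30, adjusted p = 0.124). Rspo3, a secreted ligand of both receptors, was at 0 to 22.9 CPM against 36.2 to 128 CPM (-2.98 ± 0.52). The guidance ligand Sema3c (-3.38 ± 0.49), Nrip3 (-2.56 ± 0.22), Filip1l (-2.54 ± 0.33), Gm15902 (-2.80 ± 0.41), the phosphatase Ptpn14 (-2.70 ± 0.54), the fibrillin Fbn2 (-2.48 ± 0.51), Kcnh3 (-2.39 ± 0.38) and the dynein Dnah11 (-2.39 ± 0.44) were lower as well.

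Among the olfactory bulb factors 13 were tested, and 1 passed higher and 4 lower. Sall3 was higher, at 259, 86.4, 198 and 120 CPM against 56.4, 22.9, 31.8 and 34.0 CPM (2.25 ± 0.26). Pbx3 (-1.40 ± 0.18), Gng4 (-1.56 ± 0.33) and Tshz1 were among the lower. Etv1 (0.50 ± 0.19, adjusted p = 0.157) and Synpr (0.38 ± 0.21, adjusted p = 0.384) did not pass. Of 8 neuroblast genes tested Dpysl3 passed (1.43 ± 0.40, lost without sham 1, sham 3 or nephrectomy 2 with adjusted p = 0.252, 0.0695 and 0.187), while Dcx was at 702, 298, 503 and 461 CPM in members and 599, 452, 636 and 587 CPM in the Meis2 nuclei (-0.19 ± 0.15, adjusted p = 0.606).

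The enzymes of GABA synthesis differed in opposite directions. Gad1 was at 480, 365, 511 and 481 CPM in members and 819, 678, 1039 and 895 CPM in the Meis2 nuclei (-0.86 ± 0.14, adjusted p = 8.79e-05). Gad2 was at 488, 336, 427 and 521 CPM against 243, 326, 235 and 276 CPM (0.76 ± 0.17, adjusted p = 0.00371). All 4 libraries showed both directions, although Gad2 did not pass without nephrectomy 3 (adjusted p = 0.0675).

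Pde1c and Mme had the largest higher differences among the genes named. Pde1c was at 168, 106, 297 and 371 CPM against 5.29, 38.1, 14.3 and 36.1 CPM (3.45 ± 0.36), and the peptidase Mme at 57.6 to 110 CPM against 6.38 to 11.4 CPM (3.06 ± 0.44). The calcium channel subunit Cacnb2 (2.11 ± 0.22), the AMPA receptor auxiliary protein Shisa9 (2.06 ± 0.37), the cannabinoid receptor Cnr1 (1.85 ± 0.25) and the RNA-binding protein Elavl2 (1.77 ± 0.25) were higher too. Ccnd2, a cyclin of dividing neural precursors, was higher by 1.87 ± 0.25, led by sham 3 at 614 CPM. It was at 1110 CPM in the dividing subset. The comparison nuclei held none of the 6 markers, so genes that go with a marker differ in part by how the nuclei were chosen. Slc18a2 (1.19 ± 0.36) and Pts (1.38 ± 0.32) were the 2 dopamine genes tested, and both passed. Slc18a2 did not pass without sham 1 (adjusted p = 0.0796), nephrectomy 2 (0.614) or nephrectomy 3 (0.0708), and Pts did not without nephrectomy 3 (0.0622). The netrin receptor Dcc was higher (1.16 ± 0.25) and Epha5 lower (-1.43 ± 0.14).

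Gprin3 (2.15 ± 0.33) and Pde10a (1.65 ± 0.18) were higher in members than in the Meis2 nuclei, and so were Foxp1, Penk and Ppp1r1b. Penk did not pass without sham 3 (adjusted p = 0.0605) or nephrectomy 3 (0.559), nor Ppp1r1b without nephrectomy 2 (0.209) or nephrectomy 3 (0.162). Of 6 striatal projection neuron genes tested 5 passed, all higher. The comparison nuclei were chosen without striatal receptors, so these differences follow in part from how the nuclei were chosen.

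The third comparison was with cortical interneurons of caudal origin, 583 Dlx nuclei with a Vip UMI or at least 3 Adarb2 UMIs and no Meis2 UMI. Members, in turn, were chosen without Vip. The lower caudal ganglionic genes and the higher bulb and striatal genes below therefore follow in part from how the nuclei were chosen. Of 4973 genes used by neither gate, 401 (8.06%) passed in edgeR, 183 higher (3.68%) and 218 lower (4.38%) in members. The count was 148 with DESeq2, 175 with nuclei matched on UMIs, 221 without nephrectomy 2 and 244 without nephrectomy 3.

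Of the olfactory bulb factors 9 were tested and 4 passed, all higher, and all 9 estimates were higher. Sall3 was at 86.4 to 259 CPM against 6.96, 4.80, 0 and 0 CPM (5.52 ± 0.46), and Etv1 at 192 to 374 CPM against 39.5, 21.6, 48.5 and 44.0 CPM (2.77 ± 0.24). Pbx3 was higher by 1.83 ± 0.25. The long noncoding RNA G630016G05Rik, at 48.0 to 83.9 CPM against 0 to 2.93 CPM (5.14 ± 0.76), lies on GRCm38 2:116067225-116085911 (plus strand), next to Meis2 at 2:115863064-116065839 (minus strand). Meis2 was used to choose the comparison nuclei. Dcx was higher by 1.53 ± 0.19 and Slc18a2 by 2.03 ± 0.46, the latter not without nephrectomy 2 (adjusted p = 0.153).

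Other higher genes were the Rac exchange factor Tiam2 (2.70 ± 0.36), the presynaptic protein Unc13c (2.59 ± 0.34), the calcium pump Atp2b4 (2.33 ± 0.28), the cadherin Cdh18 (2.31 ± 0.36), Ppfibp1 (3.24 ± 0.53) and Rgs9 (2.32 ± 0.23). Of 7 striatal genes tested, 6 passed, all higher. Foxp1 did not pass without nephrectomy 2 (adjusted p = 0.133) or nephrectomy 3 (0.0951), nor Ppp1r1b without nephrectomy 2 (0.0757).

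Of 10 caudal ganglionic genes tested 8 passed lower and 1, Penk, passed higher. Npas1 was at 129 CPM in the interneurons and had no UMI in members, at least 23.9-fold lower by the same floor. Reln was at 38.1 to 100 CPM against 176 to 297 CPM (-2.13 ± 0.29). Prox1 (-2.90 ± 0.43), Nr2f2 (-2.56 ± 0.45), Ndnf (-2.58 ± 0.42) and Cnr1 (-1.55 ± 0.20), which mark caudal interneuron classes, were also lower. Of 3 medial ganglionic genes tested Npy and Satb1 passed, both lower. Npy was at 38.1, 38.4, 7.63 and 20.1 CPM against 304, 187, 233 and 323 CPM (-3.26 ± 0.32). Satb1 did not pass without sham 1 (edgeR adjusted p = 0.135), sham 3 (0.0873) or nephrectomy 3 (0.118). Igf1 was at 45.8, 0, 0 and 0 CPM against 267, 221, 371 and 352 CPM (-4.45 ± 0.50), and Maf at 15.3 to 53.4 CPM against 362 to 522 CPM (-3.64 ± 0.27).

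Of the 18 growth and guidance genes 11 were tested, and 4 passed lower (Il1rap, Erbb4, Ntrk2 and Cntnap2) and 2 higher (Insr and Dcc). Il1rap was at 15.3, 57.6, 7.63 and 60.2 CPM in members against 216, 221, 255 and 261 CPM (-2.80 ± 0.34) and Erbb4 at 80.2 to 144 CPM against 434 to 526 CPM (-2.04 ± 0.21). Egfr, from the list of stem or progenitor genes, was at 7.63 to 67.2 CPM against 139 to 169 CPM (-2.37 ± 0.38). In each of these 3 the populations did not overlap, though how many of the 4973 genes showed this was not counted. The neurotrophin receptor Ntrk2 (-0.75 ± 0.15) and Cntnap2 (-1.47 ± 0.25) were lower, and the insulin receptor Insr was higher by 0.85 ± 0.25, a call lost whichever of the 4 libraries was left out (adjusted p = 0.0675 to 0.144). Dcc was higher by 0.88 ± 0.26, and did not pass without sham 1 (adjusted p = 0.137), nephrectomy 2 (0.177) or nephrectomy 3 (0.0762). Egr1, an activity gene, was higher at 68.6 to 173 CPM against 30.2 to 76.3 CPM (1.23 ± 0.28).

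Lower in members were also Pde11a (-4.95 ± 0.53), the collagen Col15a1 (-3.53 ± 0.71), Sema3c (-3.46 ± 0.50), Lgi2 (-3.42 ± 0.59) and the relaxin receptor Rxfp1 (-3.40 ± 0.53). Crh held 1 UMI at most in members and 48.0 to 78.9 CPM in the interneurons.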

How the data were processed

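Nuclei of 6 brain libraries (3 sham, 3 nephrectomy) were analysed from the authors' deposited UMI counts, 1 matrix of 32285 genes per library. Reads were mapped to mm10 with introns counted, per the labels' protocols. The labels' protocol names Cell Ranger 3.0 and Seurat 4.2.0, the submitters' processing notes name Cell Ranger 2.1.1, and per the file headers the matrices came from Cell Ranger 6.0.1. Intronic counting favours long genes, so CPM is compared within a gene, not between genes. Members, gene lists and comparison populations were chosen with earlier results of these data known.

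Nuclei were gated on raw counts, and UMIs were summed per library and population. Libraries with at least 10 nuclei entered a fit. Genes were tested with edgeR 4.0.16 (R 4.3.3; quasi-likelihood, robust, TMM scaling, filterByExpr, Benjamini-Hochberg threshold 0.05), with library as a block where 2 populations of a library were compared. Genes used by a gate stayed in the fits and in the Benjamini-Hochberg adjustment. They were left out afterwards from the counts of genes tested and passed. Shares were tested by exact 2-sided permutation of libraries. Alternatives were DESeq2 1.42.0, its size factors, limma 3.58.1 (voom), no filter, other gates, UMI matching, thinning, removal of called doublets and leaving out each library. The fit with all 6 libraries, the fit without the dividing subset and the interaction term were added after seeing the data. Doublets were scored against simulated doublets (scikit-learn 1.9.0, 2 per nucleus) and called at 0.8% per 1000 barcodes; they were kept in the main results.

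Genes were named by a rule: the gate's genes; between surgeries, the 5 genes of lowest p where fewer than 5 passed; against another population, up to 10 genes per direction with the largest fold among those that passed, had a mean of at least 50 CPM and moved alike in every library; and from each list, members of high level and those that passed. A few genes that the rule names are not reported here. Gene positions are from GENCODE M21 (GRCm38), which held 32158 of the 32285 gene identifiers. On simulated counts, edgeR recovered 69.0% of 2-fold changes between members and other Dlx nuclei. In each simulation, that of the surgeries included, changes were placed only in the more abundant genes. Recovery was not measured for the less abundant genes that were tested.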

Additional observations from a re-analysis of the deposited data

Results flagged for a closer look

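The change of Ralyl with nephrectomy differed between members and other Dlx nuclei when all 6 libraries were used. The interaction term, which takes the nephrectomy minus sham log2 change in other Dlx nuclei from that in members, was -2.62 (edgeR adjusted p = 0.0149). All 3 sham libraries lay above all 3 nephrectomy libraries in members. Over the 4 libraries with at least 10 members the term was -2.41 ± 0.48 (SE) and did not pass (adjusted p = 0.191). The term was added after seeing the data, and Ralyl was looked at because it had the lowest p in the comparison of the surgeries.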

How the results depend on the processing

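The small difference in members' share between the surgeries had no stable sign. As nephrectomy minus sham in percentage points, the share of kept nuclei differed by -0.0625, which became 0.00644 with a marker sum of at least 4, 0.128 with nuclei thinned to 2000 UMIs, and -0.217 to 0.203 when 1 library was left out. The share of Dlx nuclei differed by -0.059, against 0.215 and 0.291 with a marker sum of at least 4 or 2, 0.0973 with at least 1000 genes per nucleus, 0.591 when thinned and -0.506 to 0.612 when 1 library was left out. The difference in the share of members in the Calb2 subset was 10.9 points without called doublets and 8.61 with all 6 libraries. Leaving out 1 library gave -27.6 to 5.09 for the share of members in the Pax6 or Sp8 subset and -34.3 to 3.37 for the share of members in the dividing subset. The cause of these shifts was not tested.

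Between the surgeries, 1 gene was called without a filter on low counts, 1 with all 6 libraries, and 0 to 42 when 1 library was left out. The Meis2 estimate was -0.22 with all 6 libraries, that of Dcx was 0.041 with limma-voom, and leaving out 1 library gave -0.10 to 0.67 for Meis2, -0.60 to 0.76 for Dcx, -0.012 to 0.50 for Gad1, -0.11 to 0.54 for Gad2 and -0.27 to 2.18 for Rgs9. None of these passed except Rgs9 without sham 3.

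Against other Dlx nuclei the count of genes was 57 with DESeq2, 66 with comparison nuclei matched on UMIs, where fewer genes were tested, and 152 to 236 when 1 library was left out. Sox11 was at -0.0070 without the dividing subset. Against the Meis2 nuclei the count was 150 with DESeq2, 122 when matched, 227 with a marker sum of at least 4, 218 with all 6 libraries and 184 to 351 when 1 library was left out. Against the Vip or Adarb2 nuclei it was 148, 175 and 221 to 425 in the same order, DESeq2 first. Over the named genes and their alternatives, 1458 estimates kept direction and side of the threshold, 214 kept direction but no longer passed, 9 newly passed and 9 changed sign. A gene filtered out of a setting was not counted there. Losses were uneven. Against other Dlx nuclei DESeq2's test kept 21 named genes and lost 29, Sox11 among them (adjusted p = 0.874). With matched nuclei 13 were kept and 7 lost, and the rest were not tested. Against the Meis2 nuclei DESeq2 kept 32 and lost 8, and matching kept 18 and lost 4. Against the Vip or Adarb2 nuclei DESeq2 kept 37 and lost 9, and matching kept 20 and lost 5.

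Replicate numbers are shared by the groups, but the labels do not say that they pair libraries. Deviations of same-numbered libraries from their group means correlated at 0.152, 0.261 and -0.00212 over genes, and sham 2 correlated best with nephrectomy 3 (0.457), so pairing was not assumed. With the replicate block and all 6 libraries, a fit added after seeing the data, 1 gene was called and the Meis2 estimate was -0.28. The 4 larger libraries share 1 number, so no block could be fitted there. The share of kept nuclei gave p = 1 by exact permutation within the replicate block. Depth limits all comparisons of the surgeries, which rest on 116 members.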
